A study of Mus musculus with 6 samples.

Results

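Toll-like receptor (TLR) adaptors, IRAK kinases and the ubiquitin ligase TRAF6 were examined in resting splenic monocytes as a set of 10 genes chosen by name, Myd88, Tirap, Ticam1, Ticam2, Irak1, Irak2, Irak3, Irak4, Traf6 and Tollip, among 46072 gene identifiers. Each of the 10 symbols stood on 1 row of the count table and 1 row of the FPKM table. Of these genes, 8 are activators of the pathway, and Irak3 and Tollip are taken as its inhibitors. All 10 passed the expression filter and were among the 16138 genes tested. The Con group (3 mice, water) and the Van group (3 mice, vancomycin at 2 mg per mouse and day) were gavaged for 6 days and then left without antibiotic for 6 to 8 days. All were female C57BL/6 mice, obtained at an age of 8 to 10 weeks, and their monocytes were obtained by magnetic depletion of other spleen cells and sequenced without stimulation. The depletion leaves monocytes enriched rather than pure, and with bulk RNA, fewer cells of a type and less RNA per cell cannot be told apart.

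TLRs and the interleukin-1 receptor family carry a cytoplasmic TIR domain, which on ligation gathers TIR adaptors. MyD88, bridged to TLR2 and TLR4 by TIRAP (also called MAL), assembles IRAK4 with IRAK1 or IRAK2 into the complex known as the Myddosome, and TRAF6 then builds ubiquitin chains that activate the TAK1 and IKK kinases and NF-κB. TRIF (Ticam1), bridged to TLR4 by TRAM (Ticam2), opens a separate route to type I interferon genes. IRAK-M (Irak3), a member of the family with little or no kinase activity, and TOLLIP, which binds IRAK1, restrain the route, and IRAK-M is known for its part in endotoxin tolerance of monocytes and macrophages.

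The monocyte markers Lyz2, Csf1r, Itgam and Fn1 were abundant in every library, whereas Ly6g, a defining neutrophil marker, was at 0 in all 6. Total counts per library were between 43383900 and 61834400. Averaged over the genes tested, libraries of one group differed by more than counting noise. The summed level of 8 erythroid markers was 81.2 to 169 CPM (edgeR's count per effective library size) in Con and 282 to 622 CPM in Van, and 5 of the 8 were called, that is, had an adjusted p no higher than 0.05. Summed neutrophil markers (Con 323 to 341 CPM, Van 376 to 396 CPM) did not overlap either, almost wholly from Csf3r. The other 5 neutrophil markers tested (S100a8, S100a9, Mpo, Elane and Ngp) were at 3.55 CPM or lower in every mouse and had log2 differences below 0, from -1.32 to -0.08, of which none was called. Summed B cell markers stood at 17.5 to 20.5 CPM (Con) and 14.3 to 17.1 CPM (Van). Of 10 monocyte markers, Ccr2 and Fcgr1 were called, against 2.00% of all genes tested. Both were lower in Van, with log2 fold changes of -0.83 and -0.32. All but Csf1r (0.08) had log2 differences below 0, with a median of -0.19. Ccr2, Fcgr1, Itgam and Cx3cr1 did not overlap in CPM, against 22.5% of all genes tested. Summed monocyte markers overlapped, at 21436 to 23050 CPM in Con and 18510 to 22269 CPM in Van. Summed red pulp macrophage markers were the most abundant of the other cell types, at 2808 to 3351 CPM in Con, against 3273 to 4287 CPM in Van. All 7 had log2 differences above 0, with a median of 0.26, none was called, and Vcam1, Cd5l and C1qb did not overlap. The part of these shifts in the results below was not tested.

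None of the 10 genes differed between the Van and Con groups after adjustment, against 2.00% of all genes tested that did. With quasi-likelihood tests in edgeR, adjusted over all genes tested (Benjamini-Hochberg), the smallest adjusted p among them was 0.222, for Irak4. At an unadjusted p under 0.05, 1 of the 10 passed (Irak4), against 16.5% of all genes tested, and DESeq2's Wald test also called 0 of the 10, against 7.36% of all genes it gave an adjusted p, with Irak4 again the only gene under 0.05 before adjustment. The fitted log2 fold changes ran from -0.17 for Ticam2 to 0.22 for Ticam1, and their median was -0.05, against -0.0014 over all genes tested. Of the 10 genes, 6 had a log2 fold change below 0, against 50.4% of all genes tested. The widest limits of the 95% intervals were -0.39 (Ticam2) and 0.47 (Ticam1).

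**Figure D1:**
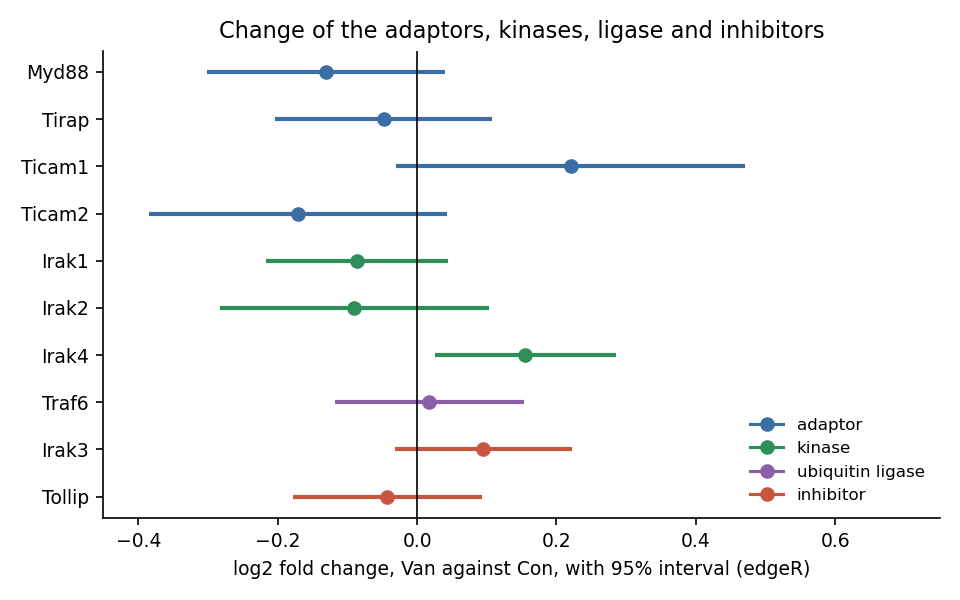
Log2 fold change of Van against Con for each of the 10 genes from edgeR (x axis), with the 95% interval as a bar and the role of the gene as the colour. All intervals except that of Irak4 (0.03 to 0.29) include 0, and no adjusted p was at or below 0.05.

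Before any comparison of groups, the genes could be ranked by FPKM, which is scaled to transcript length and so allows levels of different genes to be set side by side. Myd88 was highest, at a mean of 57.7 FPKM over the 6 mice, at the 93.1 percentile of the genes tested. Irak1 followed at 38.5 FPKM, and its range over the mice overlapped neither that of Myd88 nor that of Irak4, which was at 28.0 FPKM. Ticam2 (22.2 FPKM), Irak2 (21.7 FPKM) and Tollip (19.6 FPKM) came next, and the ranges of Ticam2 and Irak2 and of Irak2 and Tollip overlapped, so that the order of these 3 genes was not separated. Irak4 lay above the ranges of Irak2 and Tollip, and its range overlapped that of Ticam2, although Irak4 was the higher in each mouse. Irak3, at 16.6 FPKM, lay below Tollip and above Traf6 in every mouse. Traf6 (11.1 FPKM) and Ticam1 (10.2 FPKM) overlapped, and Tirap was lowest at 5.49 FPKM. MyD88 mRNA was thus present at a far higher level than that of its bridging adaptor Tirap. Among the TRIF pair the bridging adaptor Ticam2 had the higher FPKM in every mouse, with Ticam2 to Ticam1 ratios between 1.75 and 3.02. Ticam2 shares 838 exonic bases with Tmed7 on the same strand, so its level may depend on how reads were divided between these genes.

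**Figure D2:**
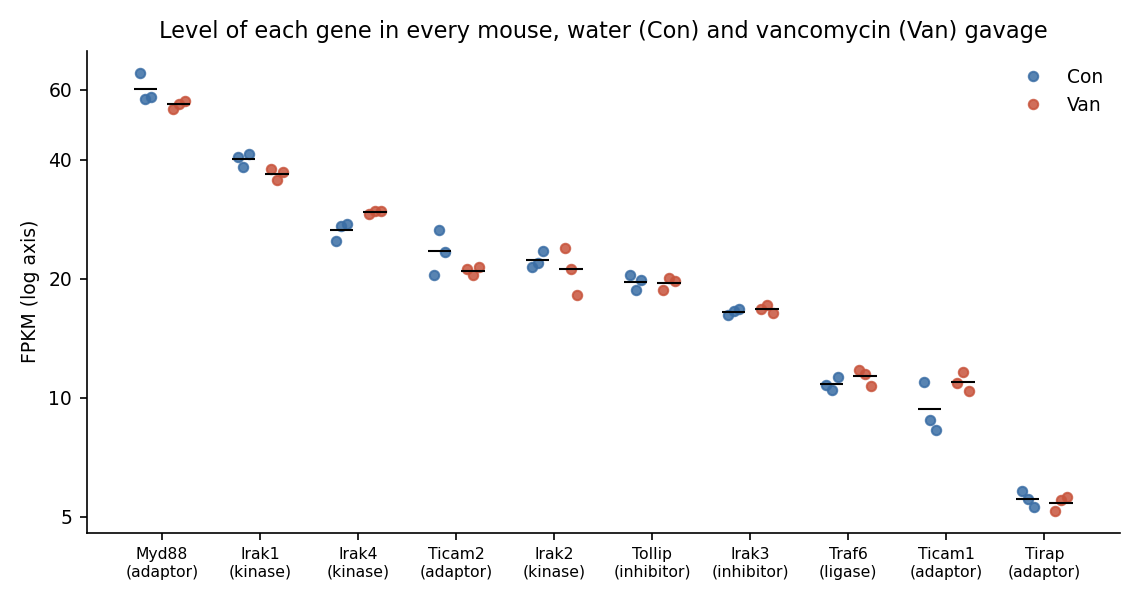
FPKM on a log axis for each gene in each mouse, with Con in blue, Van in red and a bar at the group mean of 3 mice, genes in order of their mean over the 6 mice. Myd88 is highest and Tirap lowest in every mouse, and the groups lie apart only for Myd88, Irak1 and Irak4.

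Among the adaptors, Myd88, at chr9:119335934-119341411 of GRCm38, had levels, in order of replicate, of 157, 135 and 134 CPM in Con and 126, 128 and 134 CPM in Van. Con replicate 1 was the high value, and the other 2 Con mice lay close to the Van mice. Its edgeR log2 difference of -0.13 (SE 0.07, adjusted p = 0.437) became -0.05 without Con replicate 1. On the FPKM scale the groups did not overlap, at 56.8 to 66.3 in Con and 53.8 to 56.2 in Van. Exons of Myd88 overlap those of Acaa1a on the opposite strand over 290 bases, and Acaa1a itself had a log2 fold change of 0.07.

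Tirap, at chr9:35184551-35200291, was at 27.3, 26.3 and 25.5 CPM in Con and 24.7, 25.3 and 26.5 CPM in Van. The groups overlapped, at an edgeR log2 difference of -0.05 (SE 0.07, adjusted p = 0.803).

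Ticam1, at chr17:56269319-56276786, had the largest fitted difference of the 10 genes and also the largest spread. Its levels were 39.6, 31.6 and 29.2 CPM in Con, against 39.2, 40.6 and 37.3 CPM in Van. Con replicate 1 lay within the Van range and the other 2 Con mice below it. By edgeR, Van minus Con was 0.22 on the log2 scale (SE 0.11, adjusted p = 0.366). Without Con replicate 1 it was 0.36, with an adjusted p of 0.0883, and without Con replicate 3 it was 0.14.

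Ticam2, whose product bridges TRIF to TLR4, lay at chr18:46557291-46574533 and showed the opposite order. Its values were 57.5, 74.5 and 64.0 CPM in Con and 59.0, 55.5 and 59.6 CPM in Van. Con replicate 1 was again within the Van range. The edgeR log2 difference of -0.17 (SE 0.09, adjusted p = 0.417) became -0.26 without Con replicate 1 and -0.07 without Con replicate 2. Ticam2 shares 838 exonic bases with Tmed7 on the same strand, so that reads of these genes could have been divided between them in the counting. Tmed7 was at 157 ± 11.7 CPM in Con, against 156 ± 7.85 CPM in Van (SD, n = 3 mice each).

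Of the kinases, Irak4, the first kinase of the Myddosome, lay at chr15:94543643-94581815 and was the gene with the smallest edgeR p of the 10. Its level was 85.5, 93.3 and 89.9 CPM in Con and 99.5, 98.6 and 101 CPM in Van. All 3 Van mice were above all 3 Con mice, and the same held for FPKM, at 24.9 to 27.5 in Con and 29.1 to 29.6 in Van. This made a log2 difference of 0.16 (SE 0.06, 95% interval 0.03 to 0.29), or 11.4%, with an unadjusted p of 0.0244 and an adjusted p of 0.222 in edgeR. Exact permutation of its CPM values (two-sided) gave p = 0.1, which is as low as 3 mice against 3 can go. When single mice were omitted, its log2 difference stayed between 0.12 and 0.19, with adjusted p-values of 0.258 to 0.421. The exons of Irak4 overlap those of Twf1 on the opposite strand over 395 bases, and Twf1 was at 61.5 ± 2.76 CPM in Con, against 62.8 ± 0.587 CPM in Van (SD, n = 3 mice each).

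Irak1, the kinase that IRAK4 phosphorylates and which the study counts among inhibitors of the pathway, lay at chrX:74013914-74023918. It was at 160, 147 and 150 CPM in Con and 146, 139 and 146 CPM in Van. All 3 Van mice were below all 3 Con mice, by a narrow margin. In edgeR the log2 difference was -0.09 (SE 0.06, 95% interval -0.22 to 0.04, adjusted p = 0.520), and since the study may have picked the gene from these libraries, its direction is not independent evidence. On the FPKM scale the groups also did not overlap, at 38.3 to 41.4 in Con and 35.5 to 37.9 in Van. For Irak1, limma on log2(FPKM + 1) values gave -0.14, with an unadjusted p of 0.0170 and an adjusted p of 0.259. In that fit Irak4 had an unadjusted p of 0.0256.

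Irak2, which is thought to sustain signaling at later times, lay at chr6:113638467-113695026. It was at 21.4, 21.9 and 23.5 FPKM in Con and 24.0, 21.2 and 18.2 FPKM in Van. Van replicate 1 was the highest of the 6 mice and Van replicates 2 and 3 the lowest, so that the spread lay within Van. Its edgeR log2 difference, from counts, was -0.09 (SE 0.08, adjusted p = 0.668), or -0.18 without Van replicate 1. Irak2 shares a stretch of 645 bases at 95.8% identity with the gene Gm7229, so that its reads may be uncertain.

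Traf6, the ubiquitin ligase on which the MyD88 route converges, lay at chr2:101678429-101701669. It was at 76.4, 76.1 and 78.9 CPM in Con and 82.2, 77.1 and 74.9 CPM in Van. The groups overlapped, with the highest and the lowest of the 6 mice both in Van. Van and Con differed by 0.02 on the log2 scale in edgeR (SE 0.06, 95% interval -0.12 to 0.15, adjusted p = 0.927), and by -0.02 without Van replicate 1.

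Of the inhibitors, Irak3 lay at chr10:120141648-120202130. It was at 52.8, 54.9 and 53.7 CPM in Con and 57.6, 58.1 and 56.8 CPM in Van. All 3 Van mice were above all 3 Con mice in CPM. On the FPKM scale, however, the groups overlapped, at 16.2 to 16.8 in Con and 16.4 to 17.2 in Van. The edgeR log2 difference was 0.10 (SE 0.06, 95% interval -0.03 to 0.22, adjusted p = 0.445), whereas limma on log2(FPKM + 1) values gave 0.0074. Exons of Irak3 overlap those of Tmbim4 on the opposite strand over 192 bases, and Tmbim4 had a log2 fold change of -0.03.

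Tollip, at chr7:141874813-141918507, was at 92.2, 84.5 and 86.2 CPM in Con and 83.0, 84.9 and 87.3 CPM in Van. The groups overlapped, with Con replicate 1 the highest value. For Tollip edgeR gave a log2 difference of -0.04 (SE 0.06, 95% interval -0.18 to 0.09, adjusted p = 0.797).

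In CPM, the groups did not overlap for 3 of the 10 genes (Irak1, Irak4 and Irak3), against 22.5% of all genes tested. In FPKM they did not overlap for 3 genes as well (Myd88, Irak1 and Irak4), against 21.0% of the genes tested with an FPKM above 0. Both shares were thus near those of all genes. Without Con replicate 1, 5 of the 10 genes did not overlap in FPKM, against 32.0% of all genes in the same comparison of 2 mice with 3.

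The spread between mice of a group was small for most of the 10 genes. The standard deviation of log2 CPM within groups was 0.02 for Irak3, the steadiest of the 10, at the 0.539 percentile of all genes tested. It was 0.05 for Irak4, Tirap, Traf6, Tollip and Irak1, 0.10 for Myd88, 0.12 for Irak2, 0.14 for Ticam2 and 0.17 for Ticam1. The median over all genes tested was 0.16, and 9 of the 10 genes lay below it. Spread falls with level, and among the 4544 genes within the range of mean CPM of the 10 genes, from 25.9 to 148 CPM, the median was 0.09, with 6 of the 10 genes below it. Ticam1 and Ticam2, the TRIF adaptors, were the most variable of the set, and in both the spread lay in Con, with standard deviations of 5.45 and 8.53 CPM in Con against 1.64 and 2.23 CPM in Van.

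Activators were then compared with inhibitors within each mouse, which needs no scaling between libraries. The mean log2 CPM of the 8 activators minus that of Irak3 and Tollip was 0.04, 0.06 and 0.02 for the Con mice, in order of replicate, against 0.04, -0.02 and -0.02 for the Van mice. Van replicate 1 lay within the Con range, so that the groups overlapped. The mean difference between the groups was -0.04 on the log2 scale, which was close to the standard deviation within Van (0.04). The median log2 fold change was -0.07 for the activators, of which 5 of 8 were below 0, and 0.03 for the inhibitors, of which 1 of 2 was below 0.

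Of the 16 ratios of an activator to an inhibitor in FPKM, 4 did not overlap between the groups. The Irak1 to Irak3 ratio was 2.52, 2.31 and 2.47 in Con and 2.26, 2.06 and 2.27 in Van, lower in all 3 Van mice. The Myd88 to Tollip ratio was also lower in all 3 Van mice, at 2.90 to 3.24 in Con and 2.76 to 2.87 in Van. Ratios of Irak4 to either inhibitor were higher in all 3 Van mice. Irak4 to Irak3 was 1.54 to 1.65 in Con and 1.72 to 1.81 in Van, and Irak4 to Tollip was 1.22 to 1.46 in Con and 1.47 to 1.55 in Van. For each inhibitor this made 2 of 8 ratios, against 21.0% of all genes tested for the ratio to Irak3 and 19.7% for the ratio to Tollip. In CPM, 4 of the 8 ratios to Irak3 did not overlap, against 25.9% of all genes tested, and 2 of the 8 ratios to Tollip, against 21.3%. Irak4 to Irak3 was not among them. With Con replicate 1 left out, 4 of 8 FPKM ratios to Irak3 and 5 of 8 to Tollip did not overlap, against 32.3% and 31.4% of all genes tested. With Van replicate 3 left out there were 4 of 8 for each inhibitor, against 31.8% and 29.7%.

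**Figure D3:**
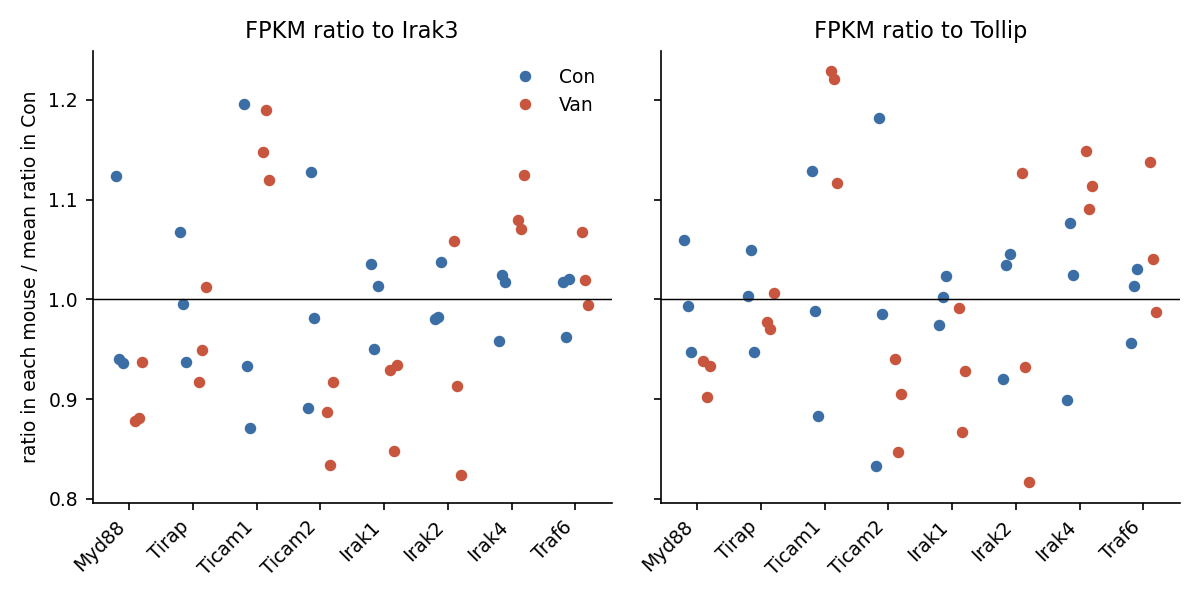
FPKM ratio of each activator to Irak3 (left) and to Tollip (right) in each mouse, divided by the mean ratio of the 3 Con mice, with Con in blue and Van in red. The groups lie apart for Irak1 and Irak4 to Irak3 and for Myd88 and Irak4 to Tollip.

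The ratio of the Myddosome kinases to each other was chosen after their values were seen and is given as a description. Irak1 to Irak4 in FPKM was 1.52 ± 0.116 in Con and 1.25 ± 0.0518 in Van (SD, n = 3 mice each). Every Van mouse was below every Con mouse, and of all genes tested 28.2% had a ratio to Irak4 that did not overlap. A pair of adaptor ratios was set side by side in the same way. Myd88 to Ticam1 was 6.05 to 6.92 in Con and 4.77 to 5.39 in Van, without overlap, whereas Ticam2 to Ticam1 was 1.86 to 3.02 in Con and 1.75 to 2.05 in Van, with overlap, and 20.4% of all genes tested had a ratio to Ticam1 that did not overlap.

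Sequence upstream of the start is shown for Irak1, Irak4 and Irak3, since these kinases were the genes whose groups did not overlap in CPM, with Irak1 lower and Irak4 and Irak3 higher in Van. Each is the 150 bases before the more upstream of the RefSeq and GENCODE starts, read 5′ to 3′ from RefSeq's windows on GRCm38.p6. Capitals mark matches on either strand to 6 motifs. The GC box was searched as GGGCGG. The CCAAT box was searched as its name spells it. The E-box was searched as CACGTG. For the TATA box the letters were TATAAA. For the cyclic AMP response element they were TGACGTCA, and the NF-κB consensus is given by name. All were searched over the 250 bases before the RefSeq start.
Irak1, chrX:74023919-74024068, minus strand: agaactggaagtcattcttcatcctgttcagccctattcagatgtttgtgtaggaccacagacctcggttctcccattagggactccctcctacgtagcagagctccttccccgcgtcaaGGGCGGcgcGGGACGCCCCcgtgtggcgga
Irak4, chr15:94543493-94543642, plus strand: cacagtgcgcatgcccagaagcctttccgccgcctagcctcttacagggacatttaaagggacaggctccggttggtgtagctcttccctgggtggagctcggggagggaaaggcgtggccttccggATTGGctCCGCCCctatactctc
Irak3, chr10:120202131-120202280, minus strand: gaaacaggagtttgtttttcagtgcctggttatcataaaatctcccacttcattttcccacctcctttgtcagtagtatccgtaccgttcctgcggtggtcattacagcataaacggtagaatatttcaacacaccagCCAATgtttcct
The Irak1 window held a GC box and a match to the NF-κB consensus, which did not overlap each other. The Irak4 window held a CCAAT box and a GC box on the reverse strand, and the Irak3 window a CCAAT box close to the start with no GC box. Among 32851 RefSeq windows of 250 bases, 32.7% held the GC box, 33.9% the CCAAT box, 7.25% the NF-κB consensus, 6.02% the E-box, 12.4% the TATA box and 1.55% the cyclic AMP response element. The matches are descriptions of the letters and were not related to the values.

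By the root mean square difference of centred log2 CPM over the 6 libraries, the genes most like Irak4 were Gsr, Srgap2, Msl1, Crlf3 and Atg3. Their differences from Irak4 were 0.0165 to 0.0248, against a median of 0.192 over all genes tested. Gsr, which encodes glutathione reductase, differed by 0.18 on the log2 scale (edgeR adjusted p = 0.124), and 0 of the 5 were called.

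The genes around the adaptors and kinases were taken from 8 lists of 73 genes, of which 72 were tested and Peli3 was not. Of the 72, 2 were called, both lower in Van (Cd180 and Il18r1), against 2.00% of all genes tested, and 40 had a log2 fold change below 0, against 50.4%. At an unadjusted p under 0.05 there were 22, or 30.6%, against 16.5% of all genes tested. In CPM, Van and Con were likewise apart for 22, or 30.6%, against 22.5%. DESeq2's Wald test called 13 of the 70 genes that it gave an adjusted p, or 18.6%, against 7.36% of all genes with one.

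Of 12 TLRs, edgeR called 0 and put 5 under an unadjusted p of 0.05, against 2.00% and 16.5% of all genes tested, and their median log2 difference was -0.10, against -0.0014. Tlr9, the endosomal receptor for DNA that signals through MyD88 alone, was at 135, 117 and 119 CPM in Con and 97.2, 99.8 and 96.7 CPM in Van. All 3 Van mice lay below the Con mice. Its edgeR log2 difference of -0.34 (SE 0.07) had an adjusted p of 0.0509, just above the threshold, and it was called with DESeq2 (adjusted p = 7.6e-04). Tlr13, a receptor for bacterial ribosomal RNA, was at 453 ± 6.17 CPM in Con, against 519 ± 43.4 CPM in Van (SD, n = 3 mice each), with an adjusted p of 0.190 from edgeR.

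Of the 10 coreceptors and chaperones, Cd180 was called, against 2.00% of all genes tested. In this list 6 had an unadjusted p under 0.05 and 6 did not overlap in CPM, against 16.5% and 22.5% of all genes tested, with 4 above and 6 below 0. The product of Cd180, also known as RP105, resembles a TLR without the TIR domain, so that it cannot itself recruit the adaptors. Cd180 was at 245, 206 and 232 CPM in Con and 151, 133 and 126 CPM in Van, and in edgeR it fell by 0.74 log2 units (SE 0.09, adjusted p = 0.0129). Omitting Con replicate 3 or Van replicate 2 raised the adjusted p to 0.0721 or 0.0758, and omitting any of the other 4 mice left it at 0.0436 or lower. Hsp90b1, the endoplasmic reticulum chaperone gp96 that folds TLRs, had an edgeR log2 difference of 0.36 and narrowly missed the threshold, and Cd14, the coreceptor of TLR4 and TLR2, one of 0.28 (adjusted p = 0.101). With DESeq2 both were called, with adjusted p-values of 3.9e-04 and 0.0093.

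Among 6 receptors of the interleukin-1 family that use MyD88, Il18r1, the ligand-binding chain of the IL-18 receptor, was called, against 2.00% of all genes tested. In this list 1 had an unadjusted p under 0.05 and 1 did not overlap in CPM, against 16.5% and 22.5%, with 3 above and 3 below 0. Il18rap, the other chain of that receptor, had an edgeR log2 difference of 0.33 (adjusted p = 0.657). Il18r1 was low, at 3.58, 5.19 and 5.15 CPM in Con and 2.23, 1.39 and 1.94 CPM in Van. In edgeR it fell by 1.32 log2 units (SE 0.24, adjusted p = 0.0336). Its adjusted p was between 0.0593 and 0.143 without Con replicates 2 and 3 and without each Van replicate, and 0.0447 without Con replicate 1. With the replicate number as a block it was 0.0948. T cells and NK cells, which also use this receptor, are among the cells that the magnetic selection is directed against, by CD3e and NK1.1. Summed T cell markers were at 40.5 to 53.8 CPM in Con, against 31.4 to 42.9 CPM in Van, most of it Cd4 (23.3 to 39.7 CPM over the 6 mice) and Cd8a. The defining T cell genes Cd3e, Cd3d, Cd3g and Trac were each at 1.24 CPM or lower in every mouse, with log2 differences of 0.12, -1.14, -0.33 and -0.48 of which none was called. Summed NK cell markers were at 4.85 to 6.82 CPM in Con, against 3.51 to 5.71 CPM in Van, most of it Klrd1, and Klrb1c, which encodes NK1.1, was at 0.867 CPM or lower. The part of these cells in the fall of Il18r1 was not tested.

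Downstream of TRAF6, 8 of the 10 TAK1 and IKK kinase genes had a log2 fold change below 0, against 50.4% of all genes tested, with a median of -0.11, and 4 had an unadjusted p under 0.05, against 16.5%, but 0 were called by edgeR, against 2.00%. Ikbkg, which encodes the NEMO subunit of IKK, was at 44.0 ± 2.08 CPM in Con, against 37.1 ± 1.32 CPM in Van, and Map3k7, which encodes TAK1, at 96.1 ± 1.24 and 88.0 ± 0.424 CPM (SD, n = 3 mice each, adjusted p = 0.101 and 0.268 from edgeR). The ubiquitin ligases and cofactors that act on TRAF6 and IRAK1 were the list with the narrowest range, from -0.13 to 0.08 over 7 genes tested, and 0 had an unadjusted p under 0.05. Peli1, the ligase Pellino 1, was at 94.3 ± 3.09 CPM in Con, against 95.7 ± 7.04 CPM in Van, and Ube2n, the ubiquitin-conjugating enzyme that works with TRAF6, at 68.2 ± 1.40 and 71.1 ± 2.60 CPM (SD, n = 3 mice each). Of the other lists, 8 further adaptors had a median of 0.05, 8 transcription factors -0.03 and 11 other negative regulators 0.00058, with 0 called by edgeR in each and 3, 1 and 2 genes at an unadjusted p under 0.05.

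**Figure D4:**
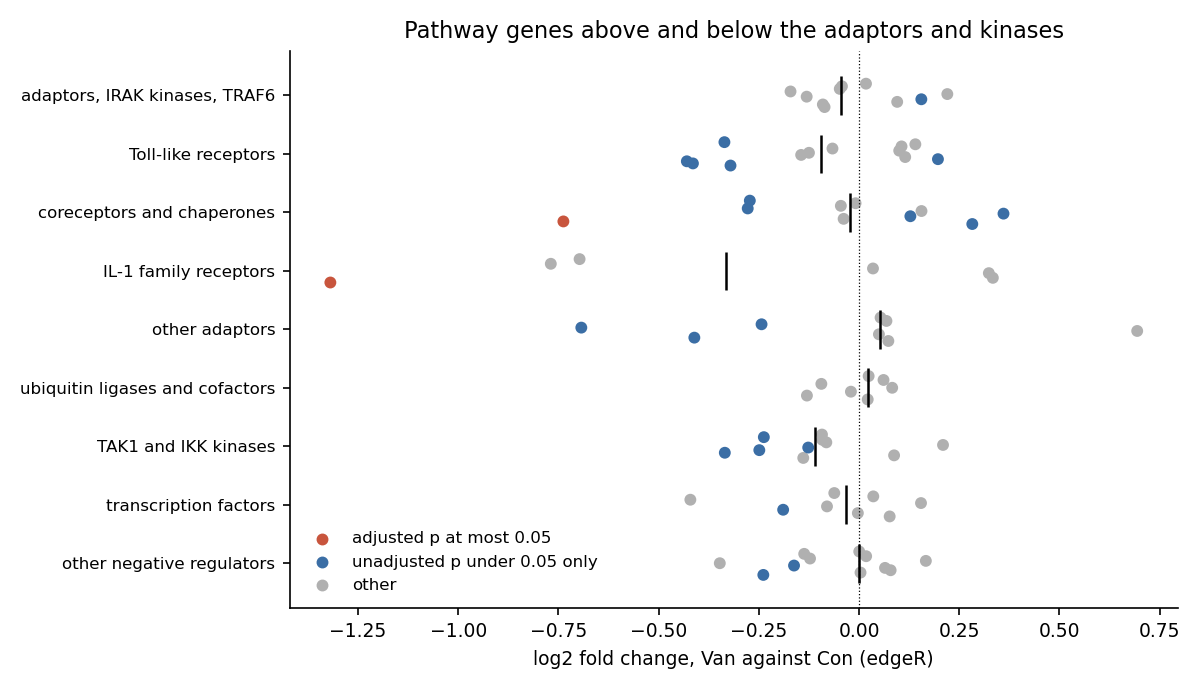
Log2 fold change of Van against Con from edgeR (x axis) for the 10 genes and for 8 lists of surrounding pathway genes, 1 point per gene, with the median of each list as a black line. The 10 genes lie between -0.17 and 0.22, and Cd180 and Il18r1 (red) are the called genes among the lists.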

How the data were processed

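Stranded libraries of polyadenylated RNA were made from spleen monocytes, 1 library for each of 3 Con and 3 Van mice. Per the labels and the submitters' processing notes, the authors aligned reads to GRCm38 with HISAT2 2.2.1, used SAMtools 1.9, and made the deposited FPKM values with StringTie 2.1.3 and Ballgown. The deposited expected counts were made by the authors from these with tximport and are not scaled to library size. The use of strand and the handling of reads that map to several places are not given in the sources used here. Libraries held 43383900 to 61834400 counts. These are expected counts and not numbers of sequenced fragments, so the fit was repeated on a fragment scale (counts multiplied by 0.375). Averaged over the genes tested, counting error was small beside the spread between mice. Its share in the spread of single genes, such as Irak3, was not examined. The labels do not name the animals, and the study's methods give 3 mice per group. The study's data statement names another deposit, and groups here come from the labels. The labels give 6 to 8 days of rest, and the study's text 8 days for the sequenced mice.

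Rounded counts went into edgeR 4.0.16 (R 4.3.3), with TMM scaling, its expression filter (minimum count 10) and the quasi-likelihood test of a model with group alone. The Benjamini-Hochberg adjustment covered all 16138 identifiers tested, and called means an adjusted p no higher than 0.05. CPM use the effective library sizes of this fit. Intervals are 95% and use the moderated degrees of freedom. Alternatives were DESeq2 1.42.0, RLE factors, library size alone, other filters on low counts, a replicate block, limma 3.58.1 on quantile-normalized log2(FPKM + 1) and log2(FPKM + 0.1) values, and each mouse left out. The fragment scale (counts multiplied by 0.375), CPM ratios, and the ratios and overlaps with each mouse left out were added after seeing the data. Exonic overlaps come from GENCODE M21 (GRCm38), and stretches count as shared from 200 bases and 95% identity upward between its transcripts.

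The genes and lists were chosen with earlier results of these data known. Named genes are the 10 genes, called genes of the lists and the 3 with the smallest p in each direction, and the 5 genes most like the one with the smallest p. Acaa1a, Twf1, Tmed7, Tmbim4 and Gm7229 were named for overlap or shared sequence, and Ikbkg, Map3k7, Peli1, Ube2n, the ratios of Irak1 to Irak4, Ticam2 to Ticam1 and Myd88 to Ticam1, and the marker genes after values were seen.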

Additional observations from a re-analysis of the deposited data

How the results depend on the processing

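With 3 mice per group, no difference in the 10 genes passed the adjustment over all genes tested. Before adjustment, only the edgeR interval of Irak4 left out 0. In the 15 alternatives (9 with all mice and 6 that leave out 1 mouse), 0 of the 10 genes were called. The direction held in all of them for 9 genes, and for Traf6 it turned to -0.021 without Van replicate 1 (range with 1 mouse left out -0.021 to 0.046), so that 7 rather than 6 genes were below 0 there. The number of genes called over all genes tested was 322, of which 174 were higher in Van. It was 962 with DESeq2, 24 (20 higher in Van) and 0 with limma on log2(FPKM + 1) and log2(FPKM + 0.1) values, 110 with the replicate block, and 21 to 136 with 1 mouse left out. The lists of surrounding genes had 2 called genes. They had 4 with library size alone, without a filter on low counts, with at least 10 counts in every library and on the fragment scale, 13 with DESeq2, 1 with the replicate block, 0 with limma at either pseudocount, and 0 to 2 with 1 mouse left out. The median log2 fold change of the activators minus that of the inhibitors was -0.09, and -0.063 with limma on log2(FPKM + 1) values. Of the 16 activator to inhibitor ratios, 4 to 9 did not overlap with 1 mouse left out, and of the 10 levels in FPKM, 3 to 5. Both counts were highest without Con replicate 1. There the shares over all genes tested were 32.3% for ratios to Irak3, 31.4% for ratios to Tollip and 32.0% for levels. The replicate block rests on a shared number alone, since deviations from the group means of same-numbered libraries correlated at 0.03, -0.0019 and -0.07, and not every library correlated best with its own number. The causes of these differences were not tested.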

Other observations

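The other TRAF genes, chosen after values were seen, did not differ between the groups after adjustment either, with adjusted p-values from edgeR between 0.403 and 0.980 over Traf1, Traf2, Traf3, Traf4, Traf5 and Traf7. Traf7 was the most abundant of the 7 TRAF genes at 38.2 FPKM, above Traf1 at 27.4 FPKM, and Traf6 stood at 11.1 FPKM, close to Traf2 at 11.0 FPKM. Traf4 was the lowest of the 7, at 0.304 FPKM. Traf5, which acts downstream of TNF receptor family members, was at 21.5 ± 0.803 CPM in Con, against 18.9 ± 2.39 CPM in Van (SD, n = 3 mice each), and its groups did not overlap, although the lowest Con and the highest Van mouse were both at 20.6 CPM. For Traf5 edgeR gave a log2 difference of -0.19 (SE 0.10, adjusted p = 0.403). Traf1, a gene induced by NF-κB, was at 88.4, 63.0 and 53.3 CPM in Van replicates 1, 2 and 3, the same order as Irak2 in those mice (77.5, 67.3 and 62.8 CPM), and both varied more within Van than between the groups.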
